A study of Mus musculus with 30 samples.

Results

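The p53 target genes examined here are 32 mouse genes taken from a fixed list of p53 and genes named as its targets. All were found by symbol in all 5 deposited expression tables. They are 32 of the 45706 genes in those tables. No measured value entered the rule for membership, but the list was chosen with earlier results of these data known. TPM, the unit of the tables, is a share of the library's transcripts corrected for their length, and a gene was tested where it averaged 1 TPM or more across the 30 libraries. Of the 32 genes 31 met this, among 12614 genes in all. The exception was Perp, a junction protein linked to apoptosis, with a mean of 0.436 TPM.

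The study cultured osteoclasts, the multinucleated cells that resorb bone, on bone slices from bone marrow macrophages of C57BL/6J mice, with M-CSF at 25 ng/ml and RANKL at 100 ng/ml, and sequenced their polyadenylated RNA. It asked whether osteoclasts differ in expression between ages of wild-type mice and between wild-type and Terc-/- mice, which lack the telomerase RNA. Of 10 groups with 3 libraries each, 5 were cultures grown until large multinucleated cells appeared: wild type at 1, 6 and 20 months of age and Terc-/- at 1 and 6 months. A further 2 were wild-type cultures stopped after 2 days, at 6 and 20 months. The last 3 were large-cell cultures whose titles carry an extra mark that the labels do not explain: wild type at 1 month marked gaiwei, and Terc-/- at 1 and 6 months marked 519. The labels do not give the generation of the Terc-/- mice, which bears on how short their telomeres were, nor whether the libraries of a group came from separate animals. P-values therefore measure the spread between libraries, which may be technical.

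p53 is a transcription factor that is kept low by the ubiquitin ligase Mdm2 and is stabilised when DNA is damaged or a telomere is read as a DNA break. It binds pairs of short half-sites near its targets. Those targets stop the cell cycle (Cdkn1a, which encodes p21) or promote death through mitochondria (Bbc3 for Puma, Pmaip1 for Noxa, Bax) or receptors at the cell surface (Fas, Tnfrsf10b, Eda2r). Others repair DNA (Xpc, Polk), change metabolism (Tigar, Sesn1) or end the response (Mdm2). Many of these genes also answer to other signals, and whether each answers to p53 in these cultures was not tested.

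RefSeq promoter windows of 300 bases (250 before to 50 after each start, build GRCm38.p6) were found for 24 of the 32 genes, and were searched on both strands for the 10-letter p53 consensus half-site. A half-site was found in 12 of the members' 36 windows (11 members), against 8.36% of all 32851 windows. A pair of adjoining half-sites with at most 1 letter off the consensus was found for 4 members and in 0.067% of all windows. The 3 stretches that follow show, in capitals, the pairs that lie outside the annotated exons of the gene itself. Each is 1 letter off the consensus, and no closer pair was found in the members' windows. Sites outside these windows were not searched. The first lies at chr17:29090903-29090972 on the plus strand, 51 bases before the Cdkn1a start. The next is at chr11:40755437-40755506 on the minus strand, 195 bases before the Ccng1 start, and the last is at chr9:66946271-66946340 on the plus strand, 117 bases before a RefSeq start of Rps27l. GENCODE starts that gene further upstream, at position 66946086, so this pair lies in an intron of the GENCODE gene.
Cdkn1a: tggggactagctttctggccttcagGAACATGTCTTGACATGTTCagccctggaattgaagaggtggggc
Ccng1: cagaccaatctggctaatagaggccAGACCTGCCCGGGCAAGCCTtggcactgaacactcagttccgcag
Rps27l: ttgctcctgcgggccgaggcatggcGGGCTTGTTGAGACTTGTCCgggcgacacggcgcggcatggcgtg
The fourth member is Gtse1, whose pair on chromosome 15 begins 1 base before a RefSeq start and lies inside the GENCODE gene, which starts at 85859745, with 19 of its bases in an exon. A match describes the letters only. As the values below show, the 4 genes with such a pair did not share 1 pattern over the groups.

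Libraries differed in ways that bear on the members. TPM were divided by a scaling factor per library (0.692 to 1.288 in unmarked and 0.656 to 0.87 in marked libraries), and all levels below are scaled TPM unless said otherwise. A change is a difference of mean log2(scaled TPM + 1) with its SE, tested with limma over all 30 libraries, and a gene is called higher or lower where its Benjamini-Hochberg adjusted p over all tested genes is under 0.05. Xist, the RNA of the inactive X chromosome, reached 46.6 to 84.1 TPM in 3 libraries, those of unmarked wild type at 1 month, and at most 0.254 TPM elsewhere. Y-linked Eif2s3y was at 0 in those 3 libraries, at 12.1 to 19.2 TPM in both 1-month Terc-/- groups and at 40.8 to 82 TPM in the rest. These differences and the group cannot be told apart in any comparison that uses the 1-month groups. Terc is at 0 in most wild-type libraries too and could not check the genotype. Replicate 2 of the unmarked 6-month wild type stood apart from its group (mean correlation with the others 0.91) and was the highest of the 30 libraries for Phlda3, Rps27l and Apaf1. The 11 osteoclast markers summed to 4606 to 24148 in the unmarked large-cell libraries, 282 to 652 in 2-day libraries and 863 to 2630 in marked libraries, so the marked cultures, labelled as osteoclasts, held far less of these transcripts. In bulk RNA, fewer cells of a type and less RNA per cell cannot be told apart.

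The most abundant members were Rps27l, a ribosomal protein homologue induced by p53, with a mean of 438.9 deposited TPM, then Cdkn1a at 283 TPM, Bax at 193 TPM and Mdm2 at 178 TPM. The least abundant tested members were Gdf15, a secreted stress cytokine, at 3.99 TPM and Ddb2, a sensor of UV-damaged DNA, at 4.78 TPM. Of the 31 tested members, 13 had their highest group mean in the 6-month 2-day wild-type cultures, 7 in the marked 1-month Terc-/- cultures and at most 2 in any other group. The lowest group mean fell in the 20-month wild-type large-cell cultures for 8 members, and in the marked 1-month or the marked 6-month Terc-/- cultures for 5 each. The span between the highest and lowest group mean was 15.2-fold for Pmaip1, 11.1-fold for Eda2r and 9.75-fold for Fas, but 1.78-fold for Cdkn1a, 1.62-fold for Trp53 itself and 1.39-fold for Ei24. Each of the 31 passed the test in at least 2 and at most 10 of the 16 comparisons.

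**Figure D1:**
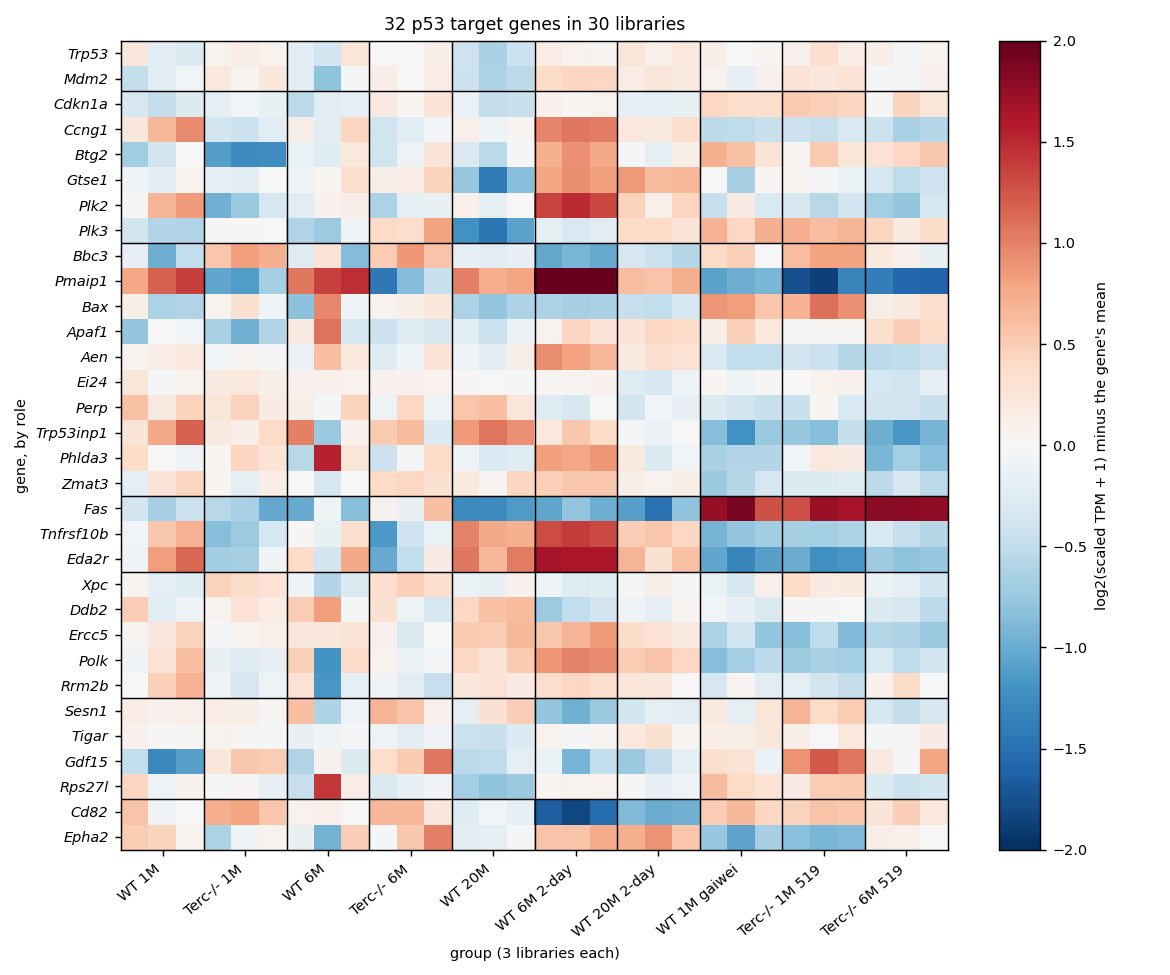
Each row is 1 of the 32 p53 target genes, ordered by role, and each column is 1 library, in 10 groups of 3; colour gives log2(scaled TPM + 1) minus the gene's mean over the 30 libraries. Pmaip1, Tnfrsf10b and Eda2r are highest in the 2-day 6-month cultures, Fas is high in the 9 marked libraries, and replicate 2 of the unmarked 6-month wild type departs from its group for Phlda3, Rps27l and Polk.

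The first question was whether the absence of Terc moved the p53 targets in large-cell cultures. At both ages Bbc3, Gdf15, Mdm2, the kinase gene Plk3, the repair gene Xpc and the tetraspanin gene Cd82 were higher in unmarked Terc-/- than in unmarked wild-type cultures, while Pmaip1 and the death receptor gene Tnfrsf10b were lower. Of the 31 members, 6 were higher and 6 lower at 1 month, where 30.9% of all genes were called (15.5% higher, 15.5% lower). At 6 months 10 were higher and 3 lower, where 28.7% of all genes were called (15.5% higher, 13.2% lower). The 6 higher at both ages were 100% of those higher at 1 month and 60% of those at 6 months, and the 2 lower at both were 33.3% and 66.7% of the lower calls. Over all genes 1082 were higher at both ages, of 1950 higher at 1 month and 1959 at 6 months. Lower at both were 878, of 1950 and 1665. As shares of all tested genes rather than of the calls, these were 8.58% and 6.96%. The members' median log2 change was -0.15 at 1 month and 0.10 at 6 months, beside 0.01 and 0.02 over all genes, so the median did not have the same sign at both ages.

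Among the genes of mitochondrial death, Bbc3 stood at 6.99, 3.55 and 5.38 in the 1-month wild-type libraries and at 12.1, 14.7 and 13.6 in Terc-/-. At 6 months it stood at 6.51, 9.82 and 3.91 in wild type and at 11.7, 15.3 and 12.3 in Terc-/-. The groups did not overlap at either age, with log2 changes of 1.23 ± 0.21 (SE, limma adjusted p = 8.59e-05) and 0.93 ± 0.21 (adjusted p = 0.00177). Pmaip1, whose protein Noxa binds the survival factor Mcl-1, went the other way. It stood at 44.8, 59.9 and 69.2 in 1-month wild type against 12, 11.4 and 15.6 in Terc-/-, and at 54.4, 68.2 and 73.6 in 6-month wild type against 8.94, 13.7 and 18.8 in Terc-/-. Every Terc-/- library was below every wild-type library, and Pmaip1 fell by 2.07 ± 0.19 and by 2.21 ± 0.19 on the log2 scale (adjusted p = 6.51e-08 and 2.68e-08). These 2 BH3-only genes moved in opposite directions in the same libraries. Over all tested genes, the groups did not overlap for 42.3% at 1 month and 26.3% at 6 months.

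Gdf15 stood at 2.33, 0.932 and 1.23 in 1-month wild type and at 4.51, 5.83 and 5.69 in Terc-/-, and at 2.09, 3.97 and 2.89 against 4.97, 5.73 and 8.74 at 6 months. No library of one genotype lay within the range of the other, and the log2 changes were 1.38 ± 0.25 (adjusted p = 0.000173) and 0.90 ± 0.25 (adjusted p = 0.00816). The 6-month call was lost without replicate 4 of the 6-month Terc-/- group (adjusted p = 0.0514). Plk3, a stress-response kinase, stood at 27.2, 23.4 and 23.1 against 36.2, 36.1 and 35.2 at 1 month and at 23.1, 21 and 33.6 against 47.4, 45.6 and 62.7 at 6 months, and Terc-/- was higher in all libraries. Its log2 changes were 0.53 ± 0.14 (adjusted p = 0.00546) and 0.99 ± 0.14 (adjusted p = 1.39e-05). Xpc, which recognises bulky lesions for excision repair, was higher by 0.50 ± 0.13 and 0.70 ± 0.13 on the log2 scale (adjusted p = 0.00509 and 0.000298).

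p53's own transcript did not pass the test at either age. Trp53 stood at 110, 80.9 and 77.0 in 1-month wild type and at 98.6, 102 and 97.7 in Terc-/-, and the log2 changes were 0.17 ± 0.13 at 1 month and 0.16 ± 0.13 at 6 months (adjusted p = 0.339 and 0.369). Mdm2, which ends the response, stood at 122, 145 and 163 against 196, 177 and 199 at 1 month, with a log2 change of 0.42 ± 0.14 (adjusted p = 0.0207), and changed by 0.44 ± 0.14 at 6 months (adjusted p = 0.0162). The 1-month call was lost without replicate 1 or 4 of Terc-/- or replicate 1 of wild type (adjusted p = 0.065 to 0.101), and the 6-month call without replicate 2 of wild type or replicate 1 of Terc-/- (adjusted p = 0.0587 to 0.113). Cdkn1a stood at 223, 200 and 231 against 245, 270 and 252 at 1 month, which do not overlap but gave 0.23 ± 0.11 (adjusted p = 0.122). At 6 months it stood at 194, 239 and 245 against 315, 285 and 338 and was higher by 0.47 ± 0.11 (adjusted p = 0.00303).

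Lower at 1 month, besides Pmaip1, were Plk2, a kinase of centriole duplication, with a log2 change of -1.2 ± 0.20 (adjusted p = 6.81e-05), and Tnfrsf10b with -1.03 ± 0.20. Ccng1, which encodes cyclin G1, changed by -0.96 ± 0.14 and the antiproliferative Btg2 by -0.85 ± 0.18. Eda2r, an X-linked receptor of ectodysplasin, changed by -1.10 ± 0.29 with overlapping groups (adjusted p = 0.00508). At 6 months Tnfrsf10b was lower by 0.63 ± 0.20 on the log2 scale (adjusted p = 0.0213) and Apaf1, the core of the apoptosome, changed by -0.64 ± 0.23 (adjusted p = 0.0415). Fas, at 5.00, 10.3 and 5.70 in wild type and 11.9, 9.93 and 17.3 in Terc-/-, was higher at 6 months by 0.83 ± 0.22 with overlapping groups (adjusted p = 0.00621). Zmat3, an RNA-binding splicing regulator, was higher by 0.49 ± 0.14 (adjusted p = 0.00928), Cd82 by 0.46 ± 0.14, and the receptor kinase gene Epha2 by 0.71 ± 0.26 (adjusted p = 0.0398). The Tnfrsf10b call was lost without replicate 4 of wild type or replicate 1 of Terc-/-, and the Epha2 and Apaf1 calls without replicate 2 of wild type (adjusted p = 0.279 and 0.33) and without 2 and 3 of the Terc-/- libraries, respectively.

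At 1 month the Mdm2, Plk3 and Xpc calls were lost with TPM as deposited (adjusted p = 0.26, 0.0722 and 0.0889), and the Mdm2, Cd82 and Eda2r calls with only the groups compared (adjusted p = 0.0795, 0.0927 and 0.067). The 6-month calls depended on how the spread was estimated. Called were 13 members in the fit used here, 2 with a variance of its own for each group, 1 with only the 2 groups in the fit and 8 (7 higher, 1 lower) with TPM as deposited. Without replicate 2 of wild type, 9 members were higher and 5 lower, and Bbc3, Gdf15, Plk3, Xpc, Cdkn1a and Pmaip1 stayed called. With a variance per group, however, Bbc3, Gdf15, Xpc and Cdkn1a lost their calls (adjusted p = 0.0971, 0.41, 0.126 and 0.276). With only the groups compared these 4 and Plk3 lost them (adjusted p = 0.218, 0.189, 0.166, 0.305 and 0.123). Of the 12 named calls at 6 months only that of Pmaip1 was kept in every alternative. No difference between the genotype effects at 6 and 1 month passed the test: limma's interaction term called 0 of 31 members, where 3.74% of all genes passed (2.93% higher, 0.817% lower), and 8 members had an unadjusted p under 0.05, 7 of them in the positive direction. The interaction was -0.01 ± 0.18 for Trp53, 0.24 ± 0.16 for Cdkn1a and 0.02 ± 0.19 for Mdm2 (adjusted p = 0.982, 0.442 and 0.958). Leaving out 1 library at a time gave 0 to 6 interaction calls. There were 6 without replicate 1, 5 without replicate 4 and 1 without replicate 2 of 6-month wild type, and 4 without replicate 1 and 1 without replicate 4 of 1-month wild type. There were 3 without replicate 4 of 1-month Terc-/- and, of 6-month Terc-/-, 3 without replicate 1 and 1 without replicate 2.

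**Figure D2:**
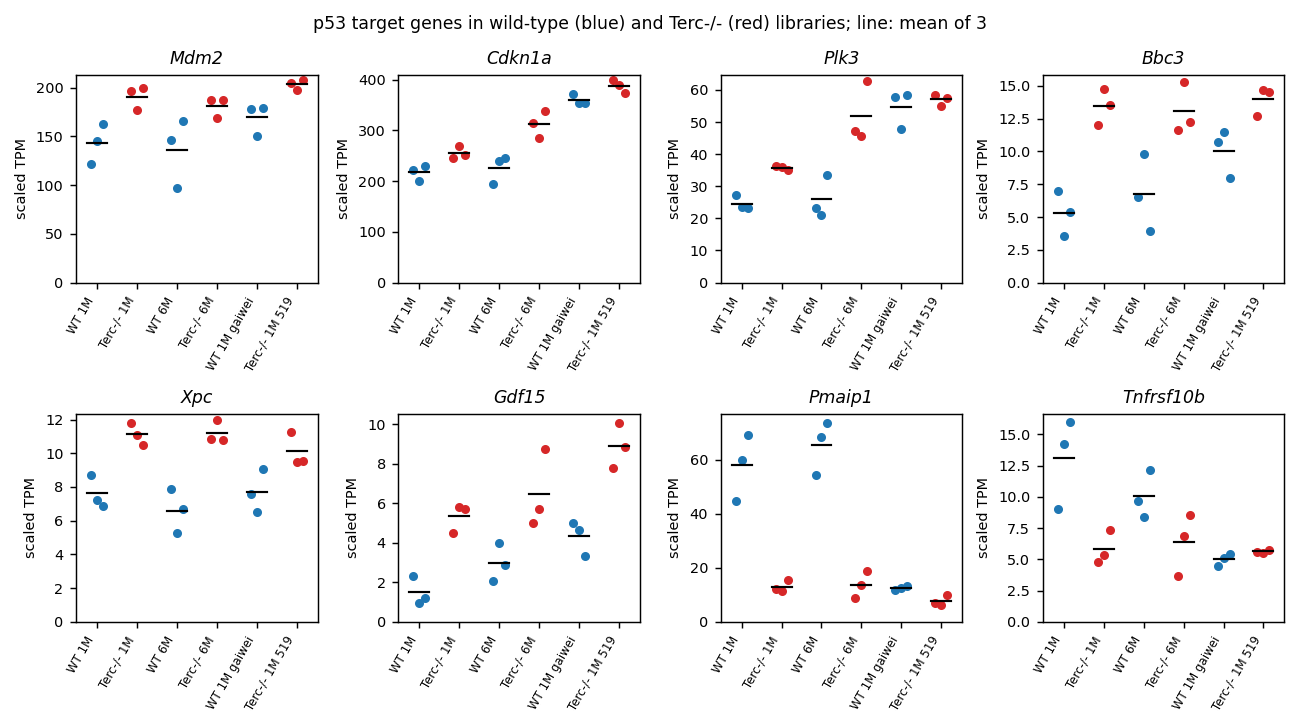
Scaled TPM (linear axis from 0) of 8 p53 target genes in 6 large-cell groups, with 1 point per library, wild type in blue, Terc-/- in red and a line at the mean of 3. In the unmarked groups Bbc3, Gdf15, Plk3 and Xpc are higher and Pmaip1 lower in every Terc-/- library than in every wild-type library of the same age; in the marked pair at the right Pmaip1 lies between 6.36 and 13.3 in all 6 libraries.

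Transcripts of stromal cells and osteoblasts differed between the genotypes, and so did several members. The 14 markers of these cells (Col1a1, Col1a2 and Postn among them) summed to 460 to 907 scaled TPM in 1-month Terc-/- libraries and 2860 to 5937 in wild type, and to 669 to 2916 and 3390 to 5623 at 6 months. Of the 12 that could be tested, 10 were lower in Terc-/- at 1 month and 9 at 6 months; Bglap was at 0 in every library and Alpl was at 0 in 1-month wild type. The 11 macrophage markers summed to 37879 to 44111 in 1-month Terc-/- and 21834 to 36097 in wild type, and to 37144 to 46699 and 24728 to 32613 at 6 months. Their part in the members' changes was not tested.

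**Figure D3:**
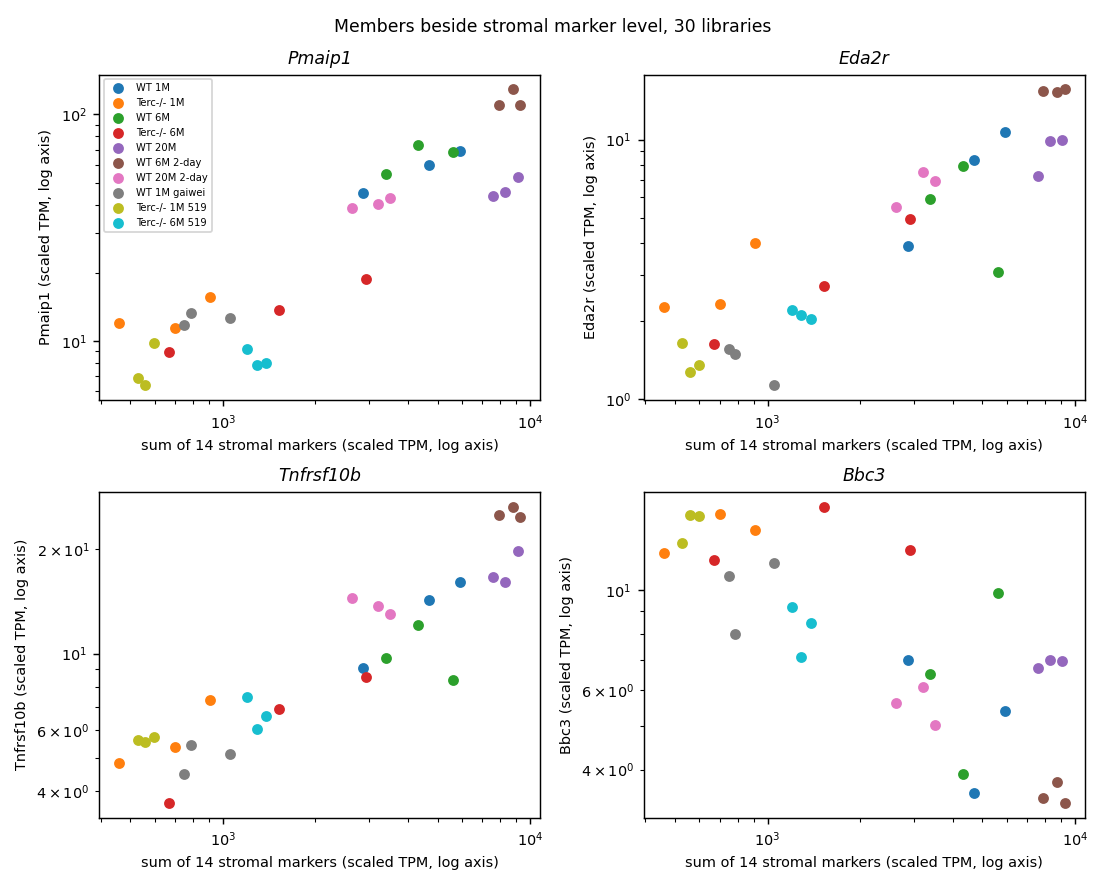
Scaled TPM of Pmaip1, Eda2r, Tnfrsf10b and Bbc3 (log axes) against the summed scaled TPM of 14 stromal and osteoblast markers (log axis), with 1 point for each of 30 libraries coloured by group. The 6-month 2-day libraries, with sums of 7904 to 9267, hold Pmaip1 at 110 to 129 and Bbc3 at 3.38 to 3.75, and the 1-month Terc-/- libraries, with sums of 460 to 907, hold them at 11.4 to 15.6 and 12.1 to 14.7. The 20-month wild-type large-cell libraries, with sums of 7570 to 9114, hold Pmaip1 at 43.5 to 52.8 and Bbc3 at 6.71 to 6.98. How closely the members follow the marker sums was not tested.

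The marked cultures gave a second comparison of genotype at 1 month, with no library shared with the first, though the marks differ (519 on Terc-/-, gaiwei on wild type), so mark and genotype cannot be told apart there. Gdf15 was higher and no other member passed the test, where 3.42% of all genes passed (1.55% higher, 1.87% lower). It stood at 5.01, 4.66 and 3.35 in wild type and at 7.79, 10.1 and 8.84 in Terc-/-, a log2 change of 0.90 ± 0.25 (limma adjusted p = 0.0431). The groups did not overlap, but the call was lost when any 1 of the 6 libraries was left out (adjusted p = 0.0686 to 0.183). Over all tested genes, these groups did not overlap for 25%. Of the other members that had differed, Pmaip1 stood at 11.7, 12.6 and 13.3 in wild type and at 6.88, 6.36 and 9.77 in Terc-/-, and Bbc3 at 10.7, 11.5 and 7.98 against 12.7, 14.7 and 14.5, with no overlap and no call for either (adjusted p = 0.0602 and 0.35). Mdm2 gave 0.27 ± 0.14, Trp53 0.14 ± 0.13 and Cdkn1a 0.10 ± 0.11 on the log2 scale (adjusted p = 0.425, 0.818 and 0.87), and Mdm2 passed with a variance per group (adjusted p = 0.0477). Stromal markers summed to 528 to 597 in the Terc-/- and 748 to 1052 in the wild-type libraries, and 0 of 12 passed the test.

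The next question was age. In wild-type large-cell cultures the members that differed at 20 months were mostly lower: Gtse1, a mitotic protein that binds p53, and Plk3 fell most clearly, and Trp53, Tigar and Rps27l were lower against both younger ages, in comparisons that share the 20-month libraries. Against 1 month, 0 members were higher and 8 lower (25.8% called), where 22.5% of all genes were called (8.58% higher, 13.9% lower). Against 6 months 2 were higher and 5 lower (22.6% called), a smaller share than the 27.6% of all genes called (11.4% higher, 16.2% lower). Calls over all genes were thus also more often lower than higher against both ages. With TPM as deposited, where the all-gene medians were 0.10 and 0.27 (beside -0.04 and -0.01 after scaling), the splits turned to 3 higher and 4 lower, and to 5 higher and 2 lower. On that scale the Trp53 and Tigar calls were lost against 1 month (-0.26 and -0.29, adjusted p = 0.331 and 0.181) and against 6 months (-0.05 and -0.01, adjusted p = 0.818 and 0.969), as were Ccng1 and Plk2 against 1 month and Plk3 against 6 months (adjusted p = 0.22, 0.285 and 0.078). Between 6 and 1 month only Rrm2b, a ribonucleotide reductase subunit, and Ccng1 were called, both lower (-0.75 ± 0.23 and -0.50 ± 0.14, adjusted p = 0.0435 and 0.0317), where 9.57% of all genes were called (5.66% lower). Trp53, Cdkn1a and Mdm2 did not pass there.

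Gtse1 stood at 11.5, 10.5 and 12.8 at 1 month, at 11.5, 12.5 and 15.5 at 6 months and at 6.83, 3.93 and 6.30 at 20 months. All 20-month libraries were below all younger ones, and Gtse1 fell by 0.94 ± 0.17 against 1 month and by 1.10 ± 0.17 against 6 months (adjusted p = 0.000226 and 5.41e-05). The 25 proliferation genes moved with it: 24 were lower against 1 month and 23 against 6 months, with medians of -1.33 and -1.64, and whether Gtse1 moved apart from them was not tested. Plk3 stood at 14.7, 12.4 and 16.5 at 20 months, below every younger wild-type library, and fell by 0.72 ± 0.14 and 0.77 ± 0.14 (adjusted p = 0.000492 and 0.000362). Over all tested genes, 42.9% did not overlap between 20 and 1 month and 30.9% between 20 and 6 months. Trp53 stood at 70.2, 59.1 and 69.2 at 20 months, and was lower by 0.41 ± 0.13 against 1 month and 0.38 ± 0.13 against 6 months (adjusted p = 0.024 and 0.0353). The first Trp53 call was lost without replicate 1 at 1 month or replicate 3 at 20 months (adjusted p = 0.119 to 0.197), and the second without any 20-month library or replicate 4 at 6 months (adjusted p = 0.0511 to 0.212).

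Cdkn1a, often used as a marker of ageing and senescent cells, stood at 223, 200 and 231 at 1 month, 194, 239 and 245 at 6 months and 253, 200 and 204 at 20 months. These ranges overlap, and its log2 change between 20 and 1 month was 0.003 ± 0.11 (adjusted p = 0.989). Mdm2 gave -0.27 ± 0.14 against 1 month and -0.17 ± 0.14 against 6 months (adjusted p = 0.162 and 0.325). Tigar, a fructose bisphosphatase that diverts glucose into the pentose pathway, fell by 0.42 ± 0.09 and 0.29 ± 0.09, and Rps27l by 0.88 ± 0.26 and 1.10 ± 0.26. Replicate 2 at 6 months held Rps27l at 1132 beside 309 and 473, and without it the change against 6 months was -0.58 (adjusted p = 0.0117). Against 1 month Ccng1, Fas and Plk2 were also lower (-0.59 ± 0.14, -0.73 ± 0.22 and -0.55 ± 0.20). Higher against 6 months were Tnfrsf10b by 0.75 ± 0.20 (adjusted p = 0.00886) and Trp53inp1, which links p53 to autophagy, by 0.83 ± 0.29 (adjusted p = 0.0357). Stromal markers summed to 7570 to 9114 at 20 months, 7 of 12 were higher than at 6 months, and their part was not tested.

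Several of these age calls rested on few libraries. The 20-against-1-month count was 4 without replicate 3 at 20 months, and 5 with only the 2 groups in the fit. The Rps27l, Fas and Plk2 calls against 1 month were each lost without replicate 3 at 20 months, and Rps27l and Fas also without replicate 1 at 1 month (adjusted p up to 0.0917 and 0.0701). Fas and Plk2 were lost without replicate 1 at 20 months, and Plk2 without replicate 3 or 4 at 1 month or replicate 4 at 20 months (adjusted p up to 0.207). The 20-against-6-month count was 4 without replicate 1 or replicate 3 at 20 months, 17 without replicate 1 at 6 months, 1 with a variance per group and 0 with only the groups compared. Against 6 months, Trp53inp1 was lost without any 20-month library or without replicate 2 or 4 at 6 months (adjusted p = 0.0628 to 0.316) and Tigar without replicate 1 or 3 at 20 months (adjusted p = 0.0664 and 0.076). The count for 6 against 1 month ranged from 0, without replicate 2 at 6 months or replicate 3 or 4 at 1 month, to 8, without replicate 1 at 6 months. It was 6 without replicate 1 at 1 month and 5 without replicate 4 at 6 months.

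In Terc-/- large-cell cultures the pattern with age differed between the unmarked and marked sets, although that difference was not tested. In the unmarked set 3 members were higher at 6 than at 1 month and 0 lower, where 4.02% of all genes were called (3% higher, 1.02% lower). Btg2 rose from 7.55, 6.64 and 6.76 to 12.9, 16.0 and 20.8 (1.11 ± 0.18, adjusted p = 0.000426), Fas was higher by 0.92 ± 0.22 (adjusted p = 0.0135) and Plk3 by 0.51 ± 0.14 (adjusted p = 0.0365). Without replicate 4 of either group the count was 1, and the Fas call was lost (adjusted p = 0.077 and 0.149); the Plk3 call was lost also without replicate 1 or 3 at 1 month (adjusted p up to 0.336) and with TPM as deposited (adjusted p = 0.245). Trp53, Cdkn1a and Mdm2 did not pass (-0.05 ± 0.13, 0.29 ± 0.11 and -0.07 ± 0.14, adjusted p = 0.973, 0.196 and 0.95). In the marked set 1 member was higher and 7 lower, where 23.8% of all genes were called (12.6% higher, 11.2% lower).

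In that marked set Sesn1, which restrains growth signalling, fell from 25.6, 20.9 and 22.7 to 12.2, 11.0 and 12.4 (-0.91 ± 0.21, adjusted p = 0.00318). Epha2 was higher, at 16.9, 16.8 and 15.3 against 8.23, 7.74 and 7.98 (0.95 ± 0.26, adjusted p = 0.00955). Neither pair of groups overlapped, which held for 57.7% of all tested genes. The further lower calls were Phlda3, Rps27l, Gdf15, Bbc3, Xpc and Ei24, with log2 changes of -0.92 to -0.36, of which all but Ei24 were lost without 1 library or another (adjusted p up to 0.0907, 0.117, 0.154, 0.0718 and 0.0594). The count was 4 without replicate 2 or 3 at 1 month or replicate 3 at 6 months and 5 without replicate 1 or 2 at 6 months. It was 17 with a variance per group, 16 with only the groups compared and 5 with TPM as deposited or no filter. The Sesn1, Ei24, Xpc and Gdf15 calls were lost with TPM as deposited (adjusted p = 0.0954, 0.377, 0.305 and 0.0867). Trp53, Cdkn1a and Mdm2 did not pass (-0.14 ± 0.13, -0.24 ± 0.11 and -0.25 ± 0.14, adjusted p = 0.44, 0.125 and 0.17), though with a variance per group Cdkn1a and Mdm2 did (adjusted p = 0.031 and 0.00812), and with only the groups compared Mdm2 did (adjusted p = 0.0167). Stromal markers were higher at 6 months for 8 of 12 in the marked and 5 of 12 in the unmarked set, and their part was not tested.

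The comparison of culture stages came next. In 6-month wild type 20 of 31 members differed between large-cell and 2-day cultures, 5 higher and 15 lower, where 49.9% of all genes were called (25% higher, 24.9% lower); at 20 months 4 were higher and 8 lower, where 36.6% were called (17% higher, 19.6% lower). At both ages Ddb2 and Cd82 were higher and Mdm2, Epha2 and Gtse1 lower in large-cell cultures, and of all genes 9.11% were higher and 8.91% lower at both. The member medians were -0.37 and -0.10, beside -0.004 and -0.03 over all genes. All 11 osteoclast markers were higher in large-cell cultures at both ages. With TPM as deposited, which moved the all-gene medians to -0.36 and -0.11, the splits were 2 higher and 21 lower at 6 months, and 2 higher and 9 lower at 20 months.

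Cd82, a membrane tetraspanin, stood at 16.4, 14.3 and 17.7 in 2-day and at 55.9, 57.5 and 53.5 in large-cell cultures at 6 months, and at 28.5, 26.3 and 26.9 against 44.9, 51.2 and 47.4 at 20 months. The stages did not overlap, and Cd82 was higher by 1.73 ± 0.14 (limma adjusted p = 1.1e-09) and 0.79 ± 0.14 (adjusted p = 6.29e-05). Over all tested genes, the stages did not overlap for 48% at 6 months and 63.5% at 20 months. Mdm2 stood at 218, 230 and 226 against 146, 96.9 and 166 at 6 months and at 187, 200 and 193 against 126, 109 and 118 at 20 months. It fell by 0.75 ± 0.14 and 0.71 ± 0.14 (adjusted p = 0.000102 and 0.000195), so that Mdm2 was lower in every large-cell library. Trp53 fell at 20 months, from 111, 101 and 108 to 70.2, 59.1 and 69.2 (-0.69 ± 0.13, adjusted p = 0.000187), and did not pass at 6 months (-0.21 ± 0.13, adjusted p = 0.187). Cdkn1a, at 295, 286 and 294 against 194, 239 and 245, was lower at 6 months (-0.37 ± 0.11, adjusted p = 0.00872) and did not pass at 20 months (-0.19 ± 0.11, adjusted p = 0.206).

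At 6 months 2 of the 3 receptor genes linked to death and 5 of 6 cell-cycle genes were lower in large-cell cultures. Fas, the other receptor gene, and Plk3 were not called. Of 9 members grouped as acting in death from within the cell, 2 were higher and 3 lower. Of all genes 25% were higher and 24.9% lower. Tnfrsf10b stood at 24.8, 26.6 and 25.0 after 2 days and at 9.69, 8.41 and 12.1 in large-cell cultures (-1.27 ± 0.20, adjusted p = 2.29e-05), and Eda2r at 15.6, 15.3 and 15.4 against 5.88, 3.08 and 7.90 (-1.38 ± 0.29, adjusted p = 0.000439). Plk2, at 115, 127 and 113 against 38.3, 47.4 and 48.8, fell by 1.39 ± 0.20, and Ccng1, at 221, 235 and 228 against 121, 97.3 and 152, by 0.90 ± 0.14. Pmaip1 fell from 110, 129 and 110 to 54.4, 68.2 and 73.6 (-0.83 ± 0.19, adjusted p = 0.00127). The 2-day libraries were above all large-cell libraries for these 5 genes, in a comparison where 48% of all tested genes did not overlap. Polk, a translesion polymerase (-1.05 ± 0.25), Btg2 (-0.85 ± 0.18) and Epha2 (-0.83 ± 0.26) also fell, and Ddb2, Sesn1, Bbc3 and Bax were higher by 0.98 ± 0.19, 0.80 ± 0.21, 0.70 ± 0.21 and 0.66 ± 0.26.

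Replicate 2 of the 6-month large-cell wild type decided part of this. Without it 3 members were higher and 14 lower, the Bbc3, Bax and Epha2 calls were lost (adjusted p = 0.0828, 0.448 and 0.118), and the Polk change went from -1.05 to -0.51 with its call kept. Without replicate 1 of that group the Sesn1 change was 0.48. The Sesn1, Bbc3 and Bax calls were lost with TPM as deposited (adjusted p = 0.211, 0.0756 and 0.152), and Trp53 passed there (-0.61, adjusted p = 0.00608). The Bax call was lost too without any of the 2-day libraries (adjusted p of at least 0.0729). With a variance per group the count was 8, and with only the groups compared 9. Stromal markers summed to 7904 to 9267 in the 2-day and 3390 to 5623 in the large-cell libraries, and 6 of 12 were lower in the large-cell cultures; their part was not tested.

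At 20 months other members led. Gtse1 fell from 22.8, 19.5 and 19.7 after 2 days to 6.83, 3.93 and 6.30 (-1.72 ± 0.17, adjusted p = 2.02e-08), while all 25 proliferation genes were lower, with a median of -2.42. Plk3 fell from 46.7, 46.5 and 42.8 to 14.7, 12.4 and 16.5 (-1.58 ± 0.14, adjusted p = 4.57e-09), Tigar by 0.57 ± 0.09 and Epha2 by 0.86 ± 0.26. Trp53inp1 was higher, at 12.3, 11.4 and 12.5 against 23.2, 27.4 and 24.5 (1.00 ± 0.29, adjusted p = 0.00849), as was Ddb2 by 0.62 ± 0.19. Smaller calls for Ei24, Apaf1 and Rps27l were lost without 1 library or another (adjusted p up to 0.145, 0.151 and 0.123), and that for Ddb2 without replicate 3 of the 2-day cultures (adjusted p = 0.0513). The Trp53inp1 call was lost with TPM as deposited (adjusted p = 0.0664). Tnfrsf10b, Eda2r, Plk2, Ccng1 and Pmaip1 did not pass at this age. Here 6 of 12 stromal markers were higher and 1 lower in the large-cell cultures.

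**Figure D4:**
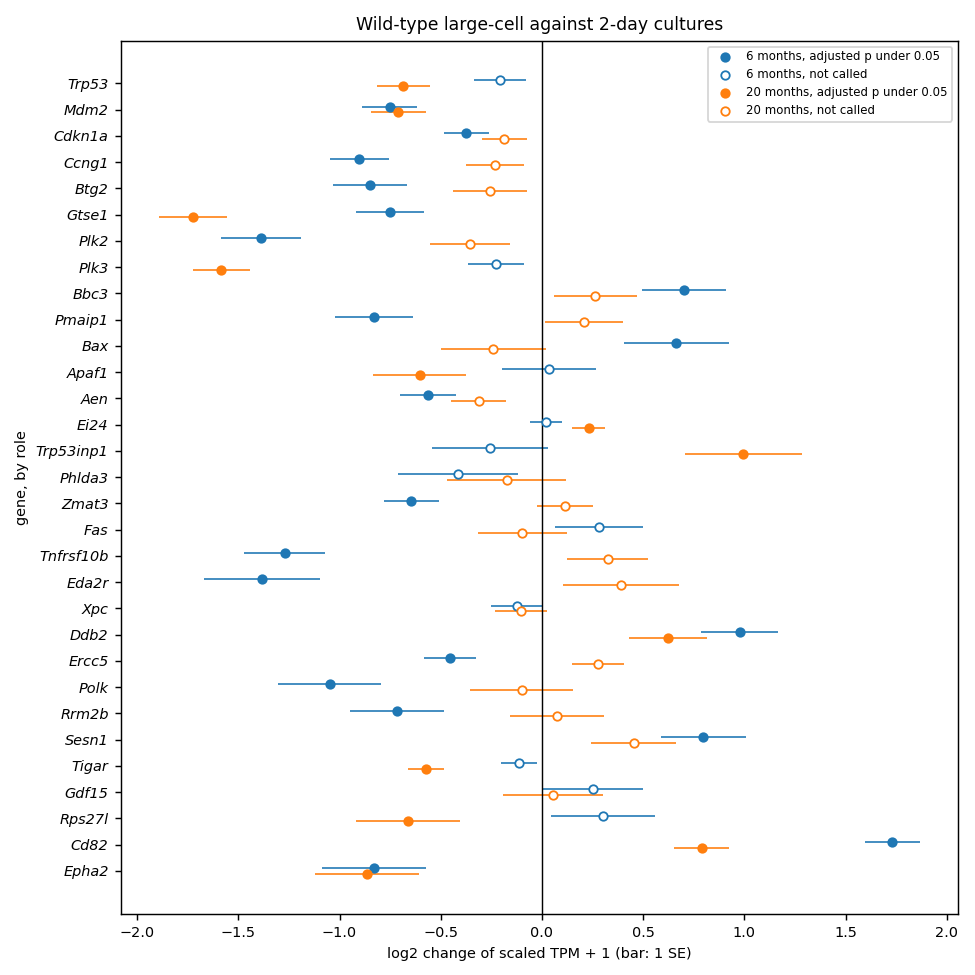
Log2 change (± 1 SE) of the 31 tested p53 target genes in large-cell against 2-day wild-type cultures at 6 months (blue) and 20 months (orange), ordered by role; filled points have an adjusted p under 0.05. Cd82 lies right and Mdm2, Gtse1 and Epha2 left of 0 at both ages, while Plk2, Tnfrsf10b and Eda2r lie left of -1 at 6 months and on both sides of 0 at 20 months.

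The test of the stage by age difference itself found 12 members, 8 with a change more positive at 20 months and 4 more negative. Of all genes 25.5% passed, 11.2% more positive and 14.3% more negative. Eda2r, Tnfrsf10b, Trp53inp1, Pmaip1, Plk2, Zmat3, Ercc5 and Ccng1 were the 8, and Plk3, Gtse1, Cd82 and Tigar the 4. Of the 12 stromal markers tested, 10 had a more positive change at 20 months, with a median of 2.46, and 24 of 25 proliferation genes a more negative one; their part in the members' differences was not tested. With TPM as deposited 10 members were more positive and 3 more negative, and the Gtse1 and Tigar calls were lost (adjusted p = 0.116 and 0.542). Trp53, Cdkn1a and Mdm2 did not pass (-0.48 ± 0.18, 0.19 ± 0.16 and 0.04 ± 0.19, adjusted p = 0.0586, 0.393 and 0.89).

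The 2-day cultures of 20 and 6 months, which make up part of that difference, were also compared directly. At 20 months 11 members were lower and 2 higher, where 17.5% of all genes were called (9.32% higher, 8.23% lower). Pmaip1 stood at 40.3, 38.6 and 42.9 at 20 months against 110, 129 and 110 at 6 months (-1.49 ± 0.19, adjusted p = 1.32e-05). Next came Eda2r (-1.11 ± 0.29), Plk2 (-1.06 ± 0.20) and Phlda3, an inhibitor of Akt (-0.87 ± 0.30). Also lower were Tnfrsf10b (-0.85 ± 0.20), Btg2 (-0.82 ± 0.18), Ccng1 (-0.76 ± 0.14) and Aen, an apoptotic nuclease (-0.53 ± 0.14). Cd82 and Plk3 were higher by 0.73 ± 0.14 and 0.58 ± 0.14. Trp53, Cdkn1a and Mdm2 did not pass (0.10 ± 0.13, -0.23 ± 0.11 and -0.22 ± 0.14, adjusted p = 0.687, 0.172 and 0.32). Cdkn1a and Mdm2 did pass with a variance per group (adjusted p = 0.0199 and 0.0117) and with only the groups compared (adjusted p = 0.00367 and 0.00986). Stromal markers summed to 2624 to 3507 at 20 months and 7904 to 9267 at 6 months, 10 of 12 lower, and their part was not tested. Without replicate 3 of the 20-month 2-day group the count was 8 and the Eda2r call was lost (adjusted p = 0.0503). The Aen call was lost without replicate 1 at 6 months (adjusted p = 0.0548) and the Phlda3 call without any 1 of the 6 libraries.

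The marked large-cell cultures differed from the unmarked ones of the same genotype and age in many members, and these 3 comparisons share no library. In all 3, Fas and Btg2 were higher and Pmaip1, Trp53inp1, Ercc5, an excision-repair nuclease, and Aen lower in the marked cultures. Of all genes, 8.89% were higher and 6.18% lower in all 3. For 519-marked Terc-/- at 1 month 7 members were higher and 5 lower, where 33.8% of all genes were called (19.1% higher, 14.8% lower). At 6 months 3 were higher and 11 lower, where 28.3% were called (15.3% higher, 13% lower). For gaiwei-marked wild type 8 were higher and 12 lower, where 46.6% were called (24.7% higher, 22% lower). With TPM as deposited, which moved the all-gene medians to -0.39, -0.26 and -0.49, the splits were 2 and 13, 1 and 15, and 4 and 19.

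Fas, the best-known death receptor of the list, gave the largest difference. It stood at 39.3, 44.3 and 28.4 in gaiwei-marked against 8.27, 6.60 and 7.95 in unmarked 1-month wild type, at 28.6, 39.0 and 37.0 against 7.26, 6.70 and 4.97 in 1-month Terc-/-, and at 41.2, 41.0 and 40.3 against 11.9, 9.93 and 17.3 in 6-month Terc-/-. Every marked library was above every unmarked one, with log2 changes of 2.14 ± 0.22, 2.30 ± 0.22 and 1.61 ± 0.22 (limma adjusted p = 2.26e-08, 1.32e-08 and 3.53e-06). Btg2 was higher by 0.87 ± 0.18, 1.47 ± 0.18 and 0.50 ± 0.18 in the same order, but with TPM as deposited it passed in 1-month Terc-/- alone (adjusted p = 0.248 in wild type and 0.53 in 6-month Terc-/-). Trp53inp1 stood at 6.45, 4.84 and 7.08 against 15.2, 21.8 and 29.7 in wild type and was lower by 1.67 ± 0.29, 0.93 ± 0.29 and 1.31 ± 0.29 on the log2 scale. Ercc5 fell by 0.85 ± 0.13, 0.79 ± 0.13 and 0.58 ± 0.13.

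Other members moved in some pairs. Cdkn1a, at 373, 355 and 355 against 223, 200 and 231 in wild type and at 400, 389 and 374 against 245, 270 and 252 in 1-month Terc-/-, was higher by 0.73 ± 0.11 and 0.60 ± 0.11 (adjusted p = 9.72e-06 and 0.000172). It did not pass at 6 months (0.08 ± 0.11, adjusted p = 0.671), and with TPM as deposited none of the 3 passed (0.15, 0.11 and -0.23, adjusted p = 0.355, 0.524 and 0.211). Trp53 and Mdm2 did not pass in any pair, with log2 changes of 0.14, 0.10 and 0.01 for Trp53 and 0.25, 0.09 and -0.09 for Mdm2, but Trp53 reversed to -0.44 in wild type with TPM as deposited (adjusted p = 0.0367). In wild type Pmaip1 stood at 11.7, 12.6 and 13.3 in marked against 44.8, 59.9 and 69.2 in unmarked libraries (-2.11 ± 0.19). Eda2r, Tnfrsf10b, Epha2, Ccng1 and Polk were lower by 1.77 ± 0.29, 1.2 ± 0.20, 1.16 ± 0.26, 1.11 ± 0.14 and 0.96 ± 0.25 on the log2 scale. Bax, Gdf15 and Plk3 were each higher by 1.12 to 1.13 in wild type and by 0.80 ± 0.26, 0.64 ± 0.25 and 0.66 ± 0.14 in 1-month Terc-/-, and Bbc3 was higher by 0.83 ± 0.21 in wild type. Apaf1 was higher by 0.73 ± 0.23 and 0.74 ± 0.23 in the Terc-/- pairs. With TPM as deposited the Bax, Gdf15 and Plk3 calls in 1-month Terc-/- (adjusted p = 0.0921, 0.448 and 0.479), both Apaf1 calls (adjusted p = 0.317 and 0.14) and the Bbc3 call in wild type (adjusted p = 0.109) were lost. At 6 months Zmat3, Sesn1, Gtse1, Xpc, Bbc3 and Phlda3 were lower, by 0.60 to 0.83 on the log2 scale.

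Some of these calls rested on 1 library. The 1-month Terc-/- count was 7 without replicate 4 of the unmarked group, where the Pmaip1, Trp53inp1 and Bax calls were lost (adjusted p = 0.0504 for Pmaip1). The 6-month count was 9 without replicate 2 of the marked group, where the Pmaip1, Apaf1, Btg2, Phlda3 and Bbc3 calls were lost (adjusted p of 0.0605 to 0.164 for Pmaip1 over the libraries that ended its call). At 1 month the Bax and Trp53inp1 calls were lost also without replicate 2, and the Aen call without replicate 3, of the marked group. The Apaf1 call was lost without replicate 3 of the unmarked group, the Gdf15 call without any 1 of the 6 libraries, and a weak Epha2 call (-0.66 ± 0.26) without 5 of them. At 6 months Btg2 and Phlda3 were each lost without any marked library and 2 of the unmarked ones. Pmaip1 was lost without replicates 2 or 3 of the marked or 2 or 4 of the unmarked group, Bbc3 without replicates 2 or 3 of the marked or 2 of the unmarked group, and Apaf1 without replicate 1 of the unmarked group. The Cd82 call in wild type (0.35 ± 0.14, adjusted p = 0.0377) was lost without any of 4 of its 6 libraries (adjusted p = 0.0716 to 0.224).

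Marker levels differed with the mark. Of the 11 osteoclast markers 11, 10 and 10 were lower in marked 1-month Terc-/-, 6-month Terc-/- and wild type. Of the 11 macrophage markers 8 were higher in each 1-month pair, while in 6-month Terc-/- 3 were higher and 2 lower; their sums were 51138 to 97109 in marked and 14841 to 46699 in unmarked large-cell libraries. The 8 neutrophil markers summed to 1379 to 3867 and 2.56 to 200.5, nearly all of it S100a8, with means of 1762 against 63.5, 2381 against 125 and 3002 against 40.4 in 1-month Terc-/-, 6-month Terc-/- and wild type. Of the 3 neutrophil markers tested S100a8 and Camp were higher in each pair, and Elane and Retnlg were at 0 in every group. Stromal markers summed to 528 to 1382 in the marked libraries, and 11 of 12 were lower in marked wild type, 4 lower and 1 higher in 1-month Terc-/- and 2 lower and 1 higher in 6-month Terc-/-. Their part in the members' differences was not tested.

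**Figure D5:**
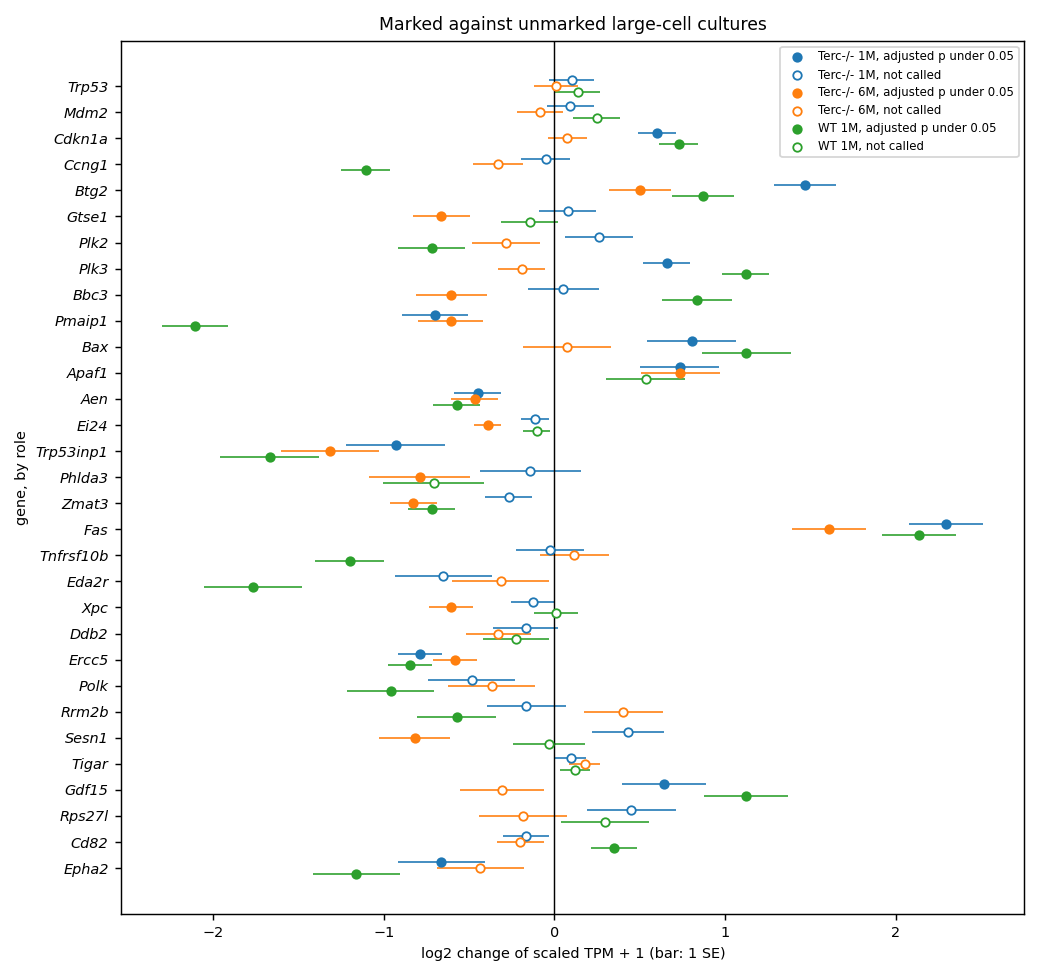
Log2 change (± 1 SE) of the 31 tested p53 target genes in marked against unmarked large-cell cultures for 1-month Terc-/- (blue), 6-month Terc-/- (orange) and 1-month wild type (green); filled points have an adjusted p under 0.05. Fas lies between 1.61 and 2.30 in all 3, Pmaip1, Trp53inp1, Ercc5 and Aen lie left of 0 and filled in all 3, and Trp53 and Mdm2 lie near 0 and open.

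Genes around the pathway were read from further lists. Of 31 other p53 targets 28 could be tested. At 1 month 7 were higher and 8 lower in unmarked Terc-/- (53.6%, beside 30.9% of all genes), with Cyfip2, a regulator of actin, at 1.28 ± 0.21 and Thbs1, which encodes a secreted inhibitor of vessel growth, at -2.27 ± 0.35. At 6 months 5 were higher and 3 lower (28.6%, beside 28.7%), with Dram1, an autophagy gene, at 1.15 ± 0.16. Marked Terc-/- against marked wild type gave 2 higher and 2 lower (14.3%, beside 3.42%), with Ephx1 at 1.24 ± 0.13 and Thbs1 at -2.23 ± 0.35. In marked against unmarked cultures Dram1 was higher by 1.48 ± 0.16, 1.21 ± 0.16 and 1.77 ± 0.16 in 1-month Terc-/-, 6-month Terc-/- and wild type, and Gadd45a, a growth-arrest gene, by 1.59 ± 0.20, 1.01 ± 0.20 and 1.19 ± 0.20. Of 25 regulators and cofactors of p53, 23 could be tested, and 3 were higher and 4 lower at 1 month (30.4%) and 1 higher and 3 lower at 6 months (17.4%) in Terc-/-, no more than the shares of all genes. Cdkn2a, whose Arf product blocks Mdm2, was higher in large-cell than in 2-day cultures by 1.75 ± 0.26 at 6 months and 2.64 ± 0.26 at 20 months, while Mdm2 and, at 20 months, Trp53 were lower. It was lower in 20-month than in 1-month wild-type large-cell cultures by 1.2 ± 0.26 on the log2 scale.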

How the data were processed

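Expression was measured by RNA sequencing in 30 libraries of 10 groups. The authors deposited 5 tables whose values sum to 1000000 per library, read here as TPM, since the headers name only genes and titles. The submitters' processing notes name HTSeq and mm10. The aligner, the versions and the use of strand are not given in the sources used here, and TPM keep no read depth, so the counting precision of each value is unknown. Exons of 7 members overlap another gene in GENCODE M21 (6 on the opposite strand: Cdkn1a, Ddb2, Ei24, Plk3, Rrm2b and Tigar, and Bax on the same), and Trp53 has an annotated pseudogene, so reads of these could be shared.

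Of the identifiers, 45143 matched GENCODE M21 and 563 did not. Each library was scaled by the mean of its gene-wise log ratios to a reference library, without weights and after trimming (30% of ratios and 5% of levels at each end). Genes averaging 1 TPM or more, 12614 in all, were tested as log2(scaled TPM + 1). limma 3.58.1 in R 4.3.3 fitted 10 group means on all libraries (trend and robust variance), with Benjamini-Hochberg adjustment over all genes per comparison at 0.05; changes of low genes are understated on this scale. On data simulated for Terc-/- against wild type at 6 months over 12614 genes, 79 of 100 2-fold and 97 of 100 4-fold changes were recovered. The simulation gave each gene the same spread in every group and changed only genes above a set level. It therefore does not show what is recovered where groups differ in spread, as the 6-month wild type did. Tables and figures used Python 3.11.15, pandas 2.3.3, numpy 2.4.6 and matplotlib 3.10.9.

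Trp53, Cdkn1a and Mdm2 are named in each comparison, then up to 8 called members per direction with the largest change, and up to 4 genes per direction of other lists; single members beyond these were chosen after their values were seen. The members and lists were chosen with earlier results of these data known. Alternatives were TPM as deposited, median-of-ratios scaling, no filter, a pseudocount of 0.1, the replicate number as a block, a variance per group, only the groups compared, and each library left out. Leaving out replicate 2 of unmarked 6-month wild type in comparisons without its group was added after seeing the data.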

Additional observations from a re-analysis of the deposited data

Results flagged for a closer look

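The change from 2-day to large-cell wild-type cultures differed between 20 and 6 months by the limma interaction test for 12 of 31 tested p53 target genes. Of all tested genes 25.5% passed, 11.2% with a more positive change at 20 months and 14.3% with a more negative one. The log2 difference (20 months minus 6 months) was 1.77 for Eda2r, 1.60 for Tnfrsf10b, 1.25 for Trp53inp1, 1.04 for Pmaip1, 1.03 for Plk2, 0.76 for Zmat3, 0.73 for Ercc5 and 0.67 for Ccng1. It was -1.36 for Plk3, -0.97 for Gtse1, -0.94 for Cd82 and -0.46 for Tigar. Eda2r, Tnfrsf10b, Plk3 and Cd82 stayed called under every alternative run. The Trp53inp1 difference was lost without replicate 2 of the 6-month large-cell group or of the 6-month 2-day group, and without replicate 3 of the 20-month large-cell group or of the 20-month 2-day group (adjusted p = 0.0544 to 0.083). Trp53 gave -0.48 (adjusted p = 0.0586) and passed without replicate 1 or replicate 2 of the 6-month large-cell group (-0.53 and -0.61, adjusted p = 0.0314 and 0.0123).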

How the results depend on the processing

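Of 141 called values of named members, 55 kept their call in every alternative run. Counts of members called moved by over 1.5 times as follows. For Terc-/- against wild type at 6 months the 13 became 8 with TPM as deposited, 2 with a variance per group and 1 with only the groups compared. For the marked genotype comparison the 1 became 0 with a pseudocount of 0.1, 0 with no filter, 6 with a variance per group and 2 with only the groups compared. For wild type at 6 against 1 month the 2 became 0 with TPM as deposited, no filter, a variance per group or only the groups compared. With only the groups compared, wild type at 20 against 1 month gave 5, 20 against 6 months 0 (and 1 with a variance per group) and unmarked Terc-/- at 6 against 1 month 1. For marked Terc-/- at 6 against 1 month the 8 became 5 with TPM as deposited or no filter, 17 with a variance per group and 16 with only the groups compared. Large-cell against 2-day cultures at 6 months gave 8 and 9, and 2-day cultures at 20 against 6 months 21 and 21, with those last settings. The genotype by age interaction gave 1 with TPM as deposited.

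Median-of-ratios scaling gave 4 higher and 5 lower at 20 against 6 months. In gaiwei-marked wild type, Trp53 and Cd82 reversed to -0.44 and -0.22 with TPM as deposited (adjusted p = 0.0367 and 0.187).

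Leaving out 1 library at a time gave 11 to 17 members for genotype at 1 month, 10 to 17 at 6 months, 0 to 3 in the marked sets and 0 to 6 for its interaction with age; 0 to 8, 4 to 10 and 4 to 17 for wild type at 6 against 1, 20 against 1 and 20 against 6 months; 1 to 4 and 4 to 12 for age in unmarked and marked Terc-/-; 17 to 22, 8 to 14, 8 to 16 and 11 to 17 for stage at 6 and 20 months, age after 2 days and their interaction; and 7 to 16, 9 to 17 and 18 to 23 for the marks in 1-month Terc-/-, 6-month Terc-/- and wild type.

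Replicate numbers gave no steady sign of pairing: same-numbered deviations correlated at -0.596 to 0.327. No comparison with 3 shared numbers had each of them over 0.1. In 2 comparisons with 2 shared numbers each was over it, at 0.23 to 0.245 for gaiwei-marked wild type and 0.169 to 0.327 for age in unmarked Terc-/-. So few shared numbers cannot exclude pairing, and the labels do not say what a replicate number marks. With the replicate number as a block, the count was 1 for wild type at 6 against 1 month and 6 for the genotype by age interaction, and Mdm2 passed in gaiwei-marked wild type (0.34, adjusted p = 0.0344). What depth limits could not be assessed, since TPM hold no read counts. The cause of these changes was not tested.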
